A study of Danio rerio with 8 samples.

Results

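Alpha-actins are the actins of contractile thin filaments. Vertebrates carry separate genes for the skeletal (ACTA1), cardiac (ACTC1) and smooth muscle (ACTA2) forms, and zebrafish keep additional copies of the striated muscle genes. The family as defined here also allowed for ACTG2, which encodes a gamma-actin of smooth muscle. The proteins polymerise into filaments along which myosin pulls, and in striated muscle those filaments carry tropomyosin and the troponins and are anchored in the Z-disc by alpha-actinin. Embryonic muscle of vertebrates uses cardiac and skeletal forms side by side, and the encoded proteins are nearly identical. Members were the rows of the gene table whose symbol began with actc1 or acta1 or was acta2 or actg2, letter case ignored. This gave 7 of 32520 genes: actc1a, actc1b, actc1c, a further copy listed as ACTC1, 2 copies listed as ACTA1, and acta2. No row carried the symbol actg2.

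The values come from RNA sequencing of whole zebrafish larvae at 2 days of age, with 4 libraries from nphp8 mutants and 4 from controls. The mutants were homozygous for the sa24730 allele and maternal zygotic, so that both the maternal and the embryo's own gene product were affected. The labels give the controls as WT, while the series design calls them siblings. A WT larva cannot have the homozygous mutant mother of a maternal zygotic mutant. If the controls were WT, genotype therefore cannot be told apart from mother or clutch. Neither group was treated, and the sources do not state how many larvae or clutches stand behind a library. The p-values therefore rest on the spread among these libraries alone, and that spread may be technical. The mutated gene, which encodes a protein of the ciliary transition zone, is listed as RPGRIP1L (ENSDARG00000051754) and averaged 0.755 ± 0.0265 TPM in mutants and 2.45 ± 0.275 TPM in controls (SD, n = 4 each). TPM is a transcript abundance that divides reads by gene length and scales each library to the same sum. Levels can therefore be compared between genes, and depth is unknown. Between 23637 and 23964 genes were above 0 in a library.

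The copies need care in 2 respects. Reads that fit several near-identical alpha-actin genes were divided among them by an estimate, so every single-copy value is uncertain to an extent that TPM alone cannot show. The symbols of the gene table also mix zebrafish and human style: RefSeq (assembly GRCz12tu) names acta1a, acta1b, acta2, actc1a and actc1b, gives acta1b the synonym actc1, and gives actc1b the synonym acta1. Only 3 of the 7 members matched a RefSeq symbol directly. The 2 ACTA1 copies and ACTC1 are therefore told apart here by Ensembl identifier alone (ENSDARG00000055618 and ENSDARG00000036371 for ACTA1, ENSDARG00000057911 for ACTC1). The 5 RefSeq alpha-actin genes lie on 5 different chromosomes.

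The alpha-actins did not move as one. In the mutants actc1b, both ACTA1 copies and actc1a were higher by 1.08-fold to 1.21-fold, ACTC1 was at 1.01 times the control mean, and actc1c stood at 0.537 times the control mean. The copy acta2 was 1.24-fold higher at a level of a few TPM. actc1c (ENSDARG00000076126) was chosen by its measured difference between mutants and controls, so its values are a description and carry no test. The other 6 were selected on their symbol, but the members were chosen with earlier results of these data known. Their count of calls is therefore a description. Of these 6, 5 passed the test as higher and 0 as lower (limma, adjusted p under 0.05 over 16560 genes), against a background of 9.32% of genes tested called higher and 13.3% called lower. All 7 members passed the filter of a mean of at least 1 TPM. In whole larvae, a change in the number of muscle cells and a change in RNA per cell cannot be told apart.

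actc1b, which is expressed in zebrafish skeletal muscle, was the most abundant alpha-actin and ranked 4 among all genes by mean TPM. It had 10258, 9703, 10115 and 10209 TPM in mutant replicates 1 to 4, against 8637, 8924, 9067 and 9030 TPM in control replicates 1 to 4. Every mutant library lay above every control. The means were 10071 ± 253 TPM in mutants and 8914 ± 195 TPM in controls (SD, n = 4 each). The log2 change, on the log2(TPM + 1) scale and as mutant minus control throughout, was 0.18 (SE 0.0233, limma adjusted p = 0.000579), which in TPM is a difference of 1157.

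Both ACTA1 copies rose as well. ACTA1 (ENSDARG00000055618) had 2560, 2447, 2534 and 2520 TPM in mutant replicates 1 to 4, against 2018, 2080, 2071 and 2119 TPM in control replicates 1 to 4. The groups did not overlap, and the ratio of means, 1.21, was the highest among the 6 members above 100 TPM. Its log2 change was 0.28 (SE 0.0213, limma adjusted p = 1.43e-05). ACTA1 (ENSDARG00000036371) had 547.9, 522.3, 558.1 and 526.7 TPM in the mutants, against 455.9, 459.1, 468.5 and 463.2 TPM in the controls. Again no library crossed over, with a log2 change of 0.22 (SE 0.0248, limma adjusted p = 0.000199).

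actc1a rose less. It had 1576, 1513, 1587 and 1594 TPM in mutant replicates 1 to 4, against 1464, 1436, 1436 and 1478 TPM in control replicates 1 to 4. In zebrafish this copy is known to be upregulated when actc1b is lost by mutation. The groups were separate, although the lowest mutant and the highest control were close, and the log2 change was 0.11 (SE 0.0216, limma adjusted p = 0.00584).

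actc1c ran the other way. It had 159, 154.4, 155.5 and 150 TPM in mutant replicates 1 to 4, against 285, 282.6, 282.3 and 302.1 TPM in control replicates 1 to 4. The mutants formed a tight set far below the controls, with means of 154.7 ± 3.7 TPM in mutants and 288 ± 9.48 TPM in controls (SD, n = 4 each). The difference was -133.3 TPM, and the log2 change was -0.89 (SE 0.0287). Of the genes tested, 82 (0.495%) had a log2 change as low or lower, actc1c among them. Control replicate 4 stood above the other 3 controls, and without it the log2 change was -0.87.

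ACTC1 (ENSDARG00000057911), next to actc1c in level, showed overlapping groups. It had 124.9, 124, 131.4 and 127.6 TPM in mutant replicates 1 to 4, against 121.4, 126.4, 125.6 and 130 TPM in control replicates 1 to 4. Its log2 change was 0.01, with a 95% interval from -0.05 to 0.08 (limma adjusted p = 0.799), and its sign turned without control replicate 1 (-0.0048) or without mutant replicate 3 (-0.0041). The interval leaves room for a change of a few percent in either direction.

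acta2 encodes the smooth muscle alpha-actin, widely used as a marker of mural and visceral smooth muscle. It had 4.3, 4.23, 3.73 and 3.67 TPM in mutant replicates 1 to 4, against 3.28, 2.84, 3.13 and 3.6 TPM in control replicates 1 to 4. The groups were separate by a narrow gap, and the log2 change of 0.24 (SE 0.0762) only just passed (limma adjusted p = 0.0456). The call was lost without control replicate 1, 2 or 3 (limma adjusted p = 0.0739, 0.109 and 0.0911) and without mutant replicate 1, 2 or 3 (limma adjusted p = 0.115, 0.103 and 0.0577). It was also lost when genes of any level were tested (limma adjusted p = 0.0795). With a pseudocount of 5 the log2 change was 0.13, and with 0.1 it was 0.30.

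**Figure D1:**
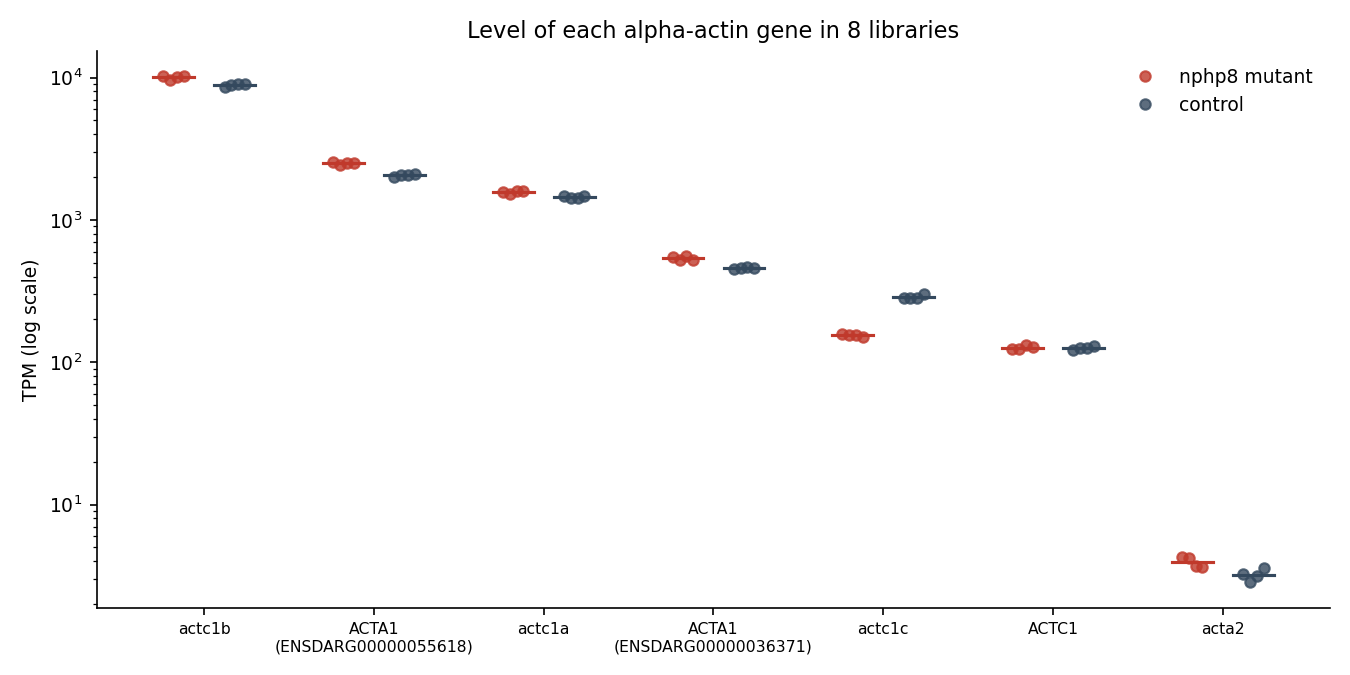
TPM of each alpha-actin gene (log axis) in the 4 nphp8 mutant libraries (left of each pair) and the 4 control libraries (right), with a point per library and a bar at the group mean. The levels run from about 10071 TPM for actc1b to 3.98 TPM for acta2 in mutants, and actc1c is the member whose mutant points lie below its controls.

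The order of levels was the same in all 8 libraries: actc1b, ACTA1 (ENSDARG00000055618), actc1a, ACTA1 (ENSDARG00000036371), actc1c, ACTC1 and acta2. No neighbours in this order overlapped within a group. The steps differed in size between the groups. They differed most around actc1c, which follows from its choice for its difference and is a description. The ratio of ACTA1 (ENSDARG00000036371) to actc1c was 3.48 ± 0.0889 in mutants and 1.6 ± 0.0533 in controls (SD, n = 4 each), and actc1c stood at 1.22 ± 0.0476 times ACTC1 in mutants and 2.29 ± 0.0553 times ACTC1 in controls. The coefficient of variation within a group ran from 1.19% to 3.29% for the 6 members above 100 TPM, and was 8.25% in mutants and 9.85% in controls for acta2. Over the 7 members, 6 had groups that did not overlap, compared with 26.1% of all genes tested (11.3% with mutants higher and 14.8% with mutants lower). actc1c is among them, and since it was picked for its difference, its lack of overlap came with the choice. The count is therefore a description. Every other member without overlap had mutants higher.

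**Figure D2:**
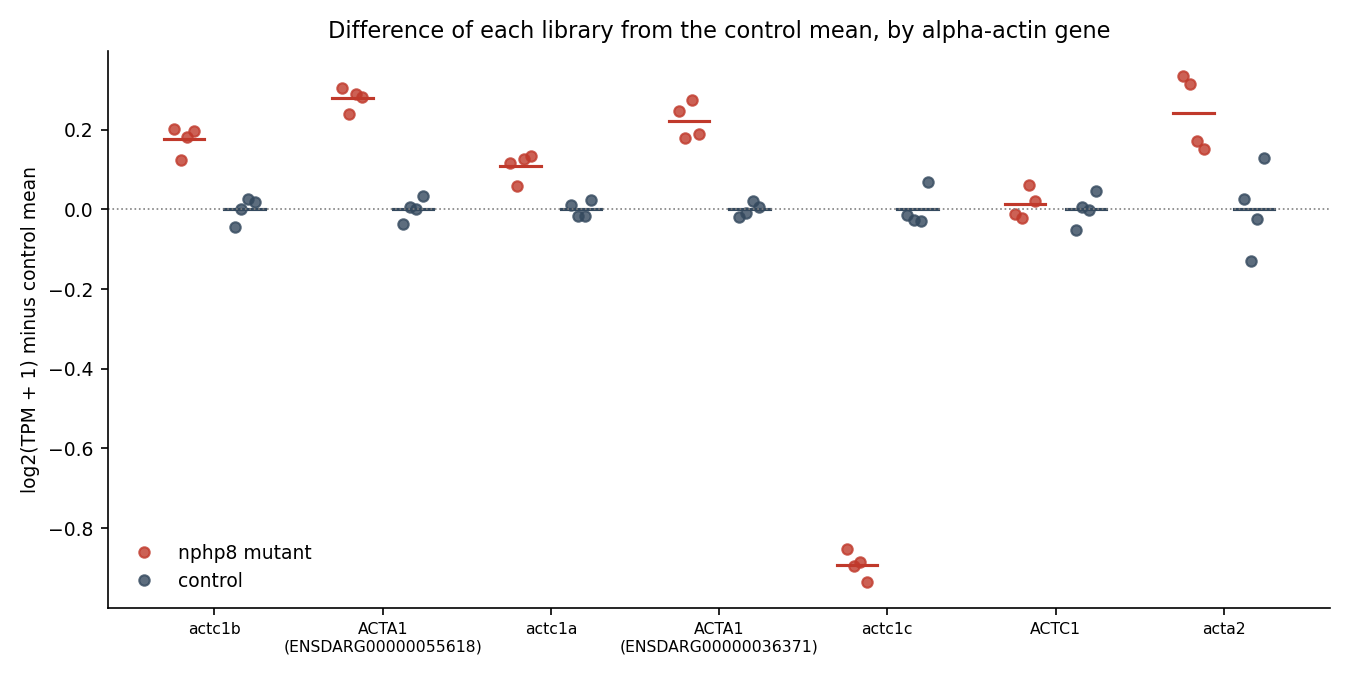
Each library's log2(TPM + 1) minus the control mean of the same gene, for nphp8 mutants (left of each pair) and controls (right), with a bar at the group mean. Mutant means lie at 0.11 to 0.28 for actc1b, actc1a, both ACTA1 copies and acta2, at 0.01 for ACTC1 and at -0.89 for actc1c.

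A sum over all 7 copies is less sensitive to how reads were divided among them than a single copy is, although copies of different length, or reads shared with genes outside the family, could still alter it. Summed alpha-actin came to 15229, 14467, 15084 and 15132 TPM in mutant replicates 1 to 4, against 12984, 13311, 13453 and 13526 TPM in control replicates 1 to 4. This is 1.5% ± 0.0346 of all TPM in mutants and 1.33% ± 0.024 in controls (SD, n = 4 each), with a ratio of 1.12. The sum carries no test, because the members were chosen with results known. The rise of actc1b alone (1157 TPM) was several times larger in TPM than the deficit of actc1c (-133.3 TPM).

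Within that sum the shares of ACTA1 (ENSDARG00000055618), actc1a, actc1c and ACTC1 did not overlap between the groups, and the others did. actc1b took 67.2% ± 0.208 of summed alpha-actin in mutants and 66.9% ± 0.377 in controls (SD, n = 4 each), which overlapped. ACTA1 (ENSDARG00000055618) took 16.8% ± 0.107 in mutants and 15.6% ± 0.12 in controls. actc1a took 10.5% ± 0.0864 in mutants and 10.9% ± 0.26 in controls, and ACTA1 (ENSDARG00000036371) took 3.6% ± 0.09 in mutants and 3.47% ± 0.0377 in controls, which overlapped. The share of actc1c was 1.03% ± 0.032 in mutants and 2.16% ± 0.0625 in controls, a gap that came with its choice. ACTC1 took 0.848% ± 0.0218 in mutants and 0.945% ± 0.0132 in controls, so its share was lower although its own level overlapped. The share of acta2 overlapped as well and stayed under 0.03% in every library.

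Partial sums were taken over copies grouped by symbol. They cannot show how far a different division of reads could matter, since which copies share reads was not tested. actc1c and ACTC1 together had 281.7 ± 4.42 TPM in mutants and 413.9 ± 12.2 TPM in controls (SD, n = 4 each), without overlap. That gap follows from actc1c, which was picked for its difference. The actc1 copies other than actc1b (actc1a, actc1c and ACTC1) together had 1849 ± 39.3 TPM in mutants and 1867 ± 30.9 TPM in controls, and these overlapped. The amount by which actc1c was lower (-133.3 TPM) was thus close to the amount by which actc1a was higher (114 TPM). With actc1b included, the actc1 copies together had 11920 ± 289 TPM in mutants and 10782 ± 198 TPM in controls, without overlap. Whether reads of actc1c were assigned to actc1a, or to another copy, in the mutants was not tested, since no sequence or read-level value was used here. The ACTA1 copies together had 3054 ± 62 TPM in mutants and 2534 ± 44.5 TPM in controls, without overlap.

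**Figure D3:**
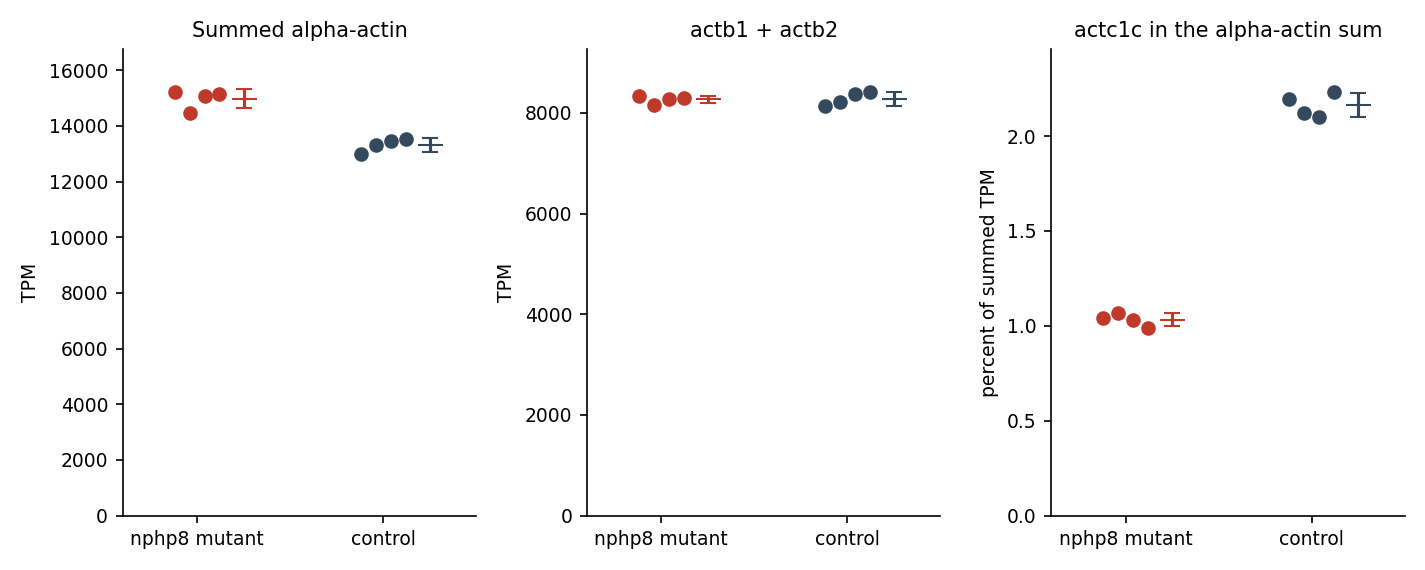
Summed TPM of the 7 alpha-actins, summed TPM of the cytoplasmic actins actb1 and actb2, and the percentage of summed alpha-actin held by actc1c, in nphp8 mutants (left) and controls (right); points are libraries and bars mean ± SD (n = 4 each). The alpha-actin sum is higher in mutants (14978 against 13319 TPM), the cytoplasmic sums overlap, and the share of actc1c is 1.03% in mutants and 2.16% in controls.

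The 6 members other than actc1c were also compared with each other, through the log2 ratio of each pair (15 pairs, exact two-sided permutation test with 70 possible assignments, Benjamini-Hochberg over the pairs). This set of tests was chosen after the values were seen, its pairs share members, and its smallest possible p is 0.0286. In 9 pairs the ratio differed between mutants and controls at that smallest p (adjusted p = 0.0476). The adjusted p falls under 0.05 only because this many pairs sit at the smallest p. With any fewer there, no pair would pass, so these calls stand or fall together. All 5 pairs that hold ACTC1 were among them, each with the partner higher relative to ACTC1 in mutants. The largest of these was ACTA1 (ENSDARG00000055618) over ACTC1, by a log2 change of 0.27, and the smallest was actc1a over ACTC1, by 0.10. The other 4 separated actc1a from actc1b and from both ACTA1 copies, which rose more, and separated ACTA1 (ENSDARG00000055618) from actc1b (0.10 in favour of ACTA1). The 2 ACTA1 copies did not separate (log2 change of their ratio 0.06, exact permutation p = 0.0571, adjusted p = 0.0857), nor did actc1b and ACTA1 (ENSDARG00000036371) (-0.05, exact permutation p = 0.0857, adjusted p = 0.117). The remaining 4 pairs without a call all hold acta2.

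The cytoplasmic actins, present in all cells, served as the closest relatives outside the family. actb1 had 4357, 4242, 4328 and 4298 TPM in mutant replicates 1 to 4, against 4126, 4208, 4338 and 4290 TPM in control replicates 1 to 4, and the groups overlapped (log2 change 0.02, limma adjusted p = 0.457). actb2 had 3983, 3921, 3953 and 3991 TPM in mutants, against 4004, 4004, 4042 and 4134 TPM in controls. The mutants lay just below the controls, with a log2 change of -0.03 that did not pass (limma adjusted p = 0.238). Summed alpha-actin was 1.81 ± 0.0262 times summed cytoplasmic actin in mutants and 1.61 ± 0.00991 times in controls (SD, n = 4 each), without overlap.

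Markers of fast skeletal muscle were higher alongside the 4 abundant alpha-actins that rose. All 20 tested genes of this list rose (limma, adjusted p under 0.05), with a median log2 change of 0.32, against 9.32% of all genes tested and a median of -0.015 over all genes. The list summed to 32456 to 33074 TPM in mutants and 26832 to 27338 TPM in controls. The parvalbumin genes pvalb2 and pvalb1, for calcium buffering in fast fibres, had the highest levels and were 1.19-fold and 1.23-fold higher. The fast myosin heavy chain gene myhz2, the myosin-binding gene mybpc2b and the calcium pump gene atp2a1l had the largest log2 changes, 0.83, 0.64 and 0.55. The part of these markers in the rise of the alpha-actins was not tested. This list and those that follow were written with earlier results of these data known. Their counts of calls are therefore a description.

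Of 9 slow skeletal muscle markers tested, 2 rose and 0 fell. That is 22.2% higher against 9.32% of all genes tested, a share that rests on 2 genes, and 0% lower against 13.3%. Called in either direction, the share was close to the 22.6% of all genes tested. The median log2 change was 0.02, with sums of 1253 to 1293 TPM in mutants and 1282 to 1299 TPM in controls. Those 2 were the slow myosin heavy chain gene smyhc1 (1.1-fold) and MYOZ2 (ENSDARG00000012311, 1.14-fold), a Z-disc gene. The most abundant of the list, myl10 and tpm3, had ratios of 0.974 and 0.975 and did not pass (limma adjusted p = 0.219 and 0.264). Whether the fast and slow lists differ was not tested.

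Of 18 heart markers tested, 3 rose and 3 fell, or 16.7% each way against 9.32% and 13.3% of all genes tested, so that the lower calls lay near the background. Their median log2 change was -0.01, with sums of 309.4 to 328.8 TPM in mutants and 314.6 to 325.3 TPM in controls. The natriuretic peptide gene nppb (log2 change 0.61) and MYBPC3 (0.32), a thick filament gene, rose, and the myosin light chain gene myl4 fell by 0.85 on the log2 scale. At their level of a few TPM, nppb and myl4 moved with the pseudocount, to 0.37 and -0.52 at a pseudocount of 5. cmlc1, another heart myosin light chain, averaged 72.9 ± 3.87 TPM in mutants and 80.2 ± 2.26 TPM in controls (SD, n = 4 each), with a call (limma adjusted p = 0.0327) that was lost without control replicate 1, 2 or 4 (adjusted p = 0.0746, 0.0546 and 0.0859), without mutant replicate 1 or 2 (adjusted p = 0.0859 and 0.082), under both rescalings (adjusted p = 0.0776 and 0.0749) and without a filter on low values (adjusted p = 0.0513). MYL7, which did not pass, had a ratio of 0.915 (limma adjusted p = 0.101; 0.04 without mutant replicate 3). Without control replicate 2 or 4 the number of heart markers that fell was 1.

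Smooth muscle markers, beside the low level of acta2, gave few tested genes. Of 16 matched genes 6 were at 1 TPM or more on average, of which 2 rose and 1 fell, counts too small to set against the 9.32% higher and 13.3% lower of all genes tested. The list summed to 177.5 to 194.6 TPM in mutants and 193.8 to 201.7 TPM in controls. Most of that sum was TAGLN (ENSDARG00000033466), an actin-binding gene that fell (132.2 ± 6.2 TPM in mutants and 149.1 ± 3.56 TPM in controls, SD, n = 4 each; limma adjusted p = 0.00655). The other TAGLN copy (ENSDARG00000045408) and smtnl1 rose, by log2 changes of 0.66 (0.42 with a pseudocount of 5) and 0.18. None of the 16 was at 0 in every library.

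**Figure D4:**
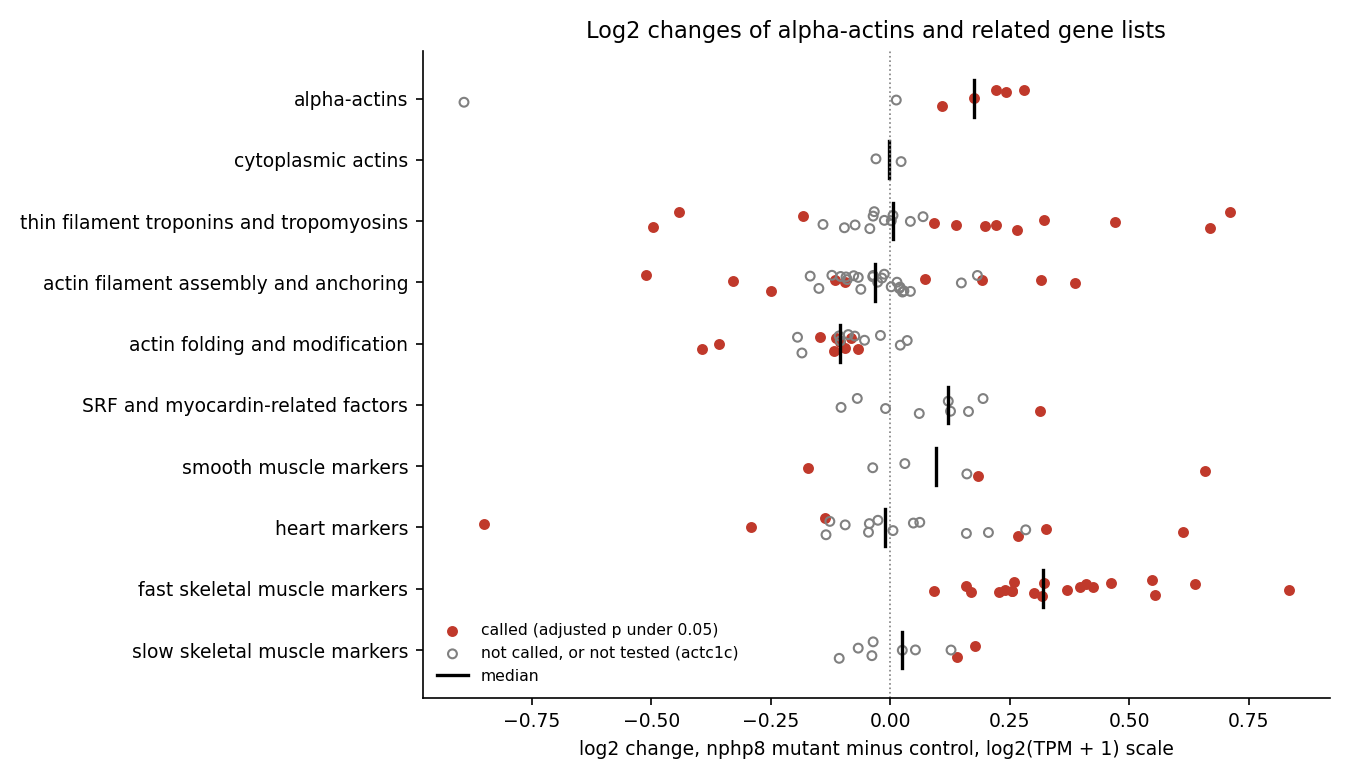
Log2 change (nphp8 mutant minus control, log2(TPM + 1) scale) of each tested gene in the alpha-actin family and in 9 related lists; filled points passed limma at an adjusted p under 0.05, open points did not or, for actc1c, were not tested, and vertical bars are medians. All 20 fast skeletal muscle markers lie above 0, while the actin folding list has a median of -0.10 and actc1c lies at -0.89.

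Among partners of actin in the thin filament, more genes were called higher than lower. Of 23 troponin and tropomyosin genes tested, 9 rose and 3 fell. The share lower, 13%, was that of all genes tested (13.3%), while 39.1% were higher against 9.32%. The median log2 change was 0.01. The list summed to 20612 to 21235 TPM in mutants and 17505 to 18525 TPM in controls, a ratio of 1.15 without overlap. The tropomyosin gene tpma and the troponin I gene TNNI2 (ENSDARG00000029069) were the most abundant and rose, by log2 changes of 0.20 and 0.47. The troponin T gene tnnt2e (0.71) and a second TNNI2 copy (ENSDARG00000029995, 0.67) rose as well, whereas tnnt2c, another troponin T, fell by 0.50 on the log2 scale. The other genes called higher were TNNT3 (ENSDARG00000068457, 0.32), tnnt2d (0.26), TNNC2 (0.22), tnni4b.2 (0.14) and the other TNNT3 copy (ENSDARG00000030270, 0.09). Neither TNNI2 nor the tropomyosins moved as one. Another TNNI2 copy (ENSDARG00000035958) and the tropomyosin gene tpm1 fell, with log2 changes of -0.18 and -0.44 (limma adjusted p = 0.000134 and 3.53e-05). Several of these genes share a symbol with another copy, and whether reads are shared between such copies was not tested.

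Of 32 genes for filament assembly and anchoring, 4 rose and 5 fell. These shares of 12.5% and 15.6% were near those of all genes tested, 9.32% higher and 13.3% lower. The median log2 change was -0.03. The alpha-actinin gene actn3a, for the Z-disc of fast fibres, rose by 0.39. TMOD1, which caps the pointed end of actin filaments, FLNC (ENSDARG00000018820), a muscle filamin, and the cofilin-like gene cfl1l fell by 0.51, 0.33 and 0.10 on the log2 scale. With a pseudocount of 5, TMOD1 stood at -0.26 and FLNC (ENSDARG00000018820) at -0.21. The other FLNC copy (ENSDARG00000018566) had a log2 change of 0.18 and did not pass (limma adjusted p = 0.0851). CFL1, the most abundant member, had a ratio of 1.01 and did not pass (limma adjusted p = 0.726). The number that rose was 2 without control replicate 2 or 3 or mutant replicate 3 or 4, and the number that fell was 3 among genes of at least 5 TPM.

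Genes for actin folding were lower in part, and no actin modification gene of the same list passed the test. Newly made actin is handed by prefoldin to the chaperonin CCT, in which it folds. Of 19 genes tested over the whole list, 9 fell and 0 rose. Their median log2 change was -0.10, and the share lower stands against 13.3% of all genes tested called lower. PDCL3, a phosducin-like cofactor of the chaperonin, fell by 0.39, the prefoldin gene PFDN2 by 0.36 and the chaperonin gene CCT7 by 0.15 on the log2 scale. CCT2 (ENSDARG00000104674) fell by 0.11, a call lost without control replicate 3 (limma adjusted p = 0.0506), without mutant replicate 2 or 3 (limma adjusted p = 0.0532 and 0.0538) and in the scaling that leaves out mitochondrial and the top 50 genes (limma adjusted p = 0.0611). CCT5, the most abundant, had a ratio of 0.963 and did not pass (limma adjusted p = 0.089). The count depended on scaling, with 6 lower after median-of-ratios rescaling and 3 lower when libraries were rescaled to the total that leaves out mitochondrial transcripts and the top 50 genes.

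Serum response factor, with its myocardin-related partners, is the classical activator of alpha-actin genes. The list used here is broader: beside SRF, mrtfab and ABRA it holds copies of FHL1, FHL2 and VCL, which are not such factors. Of its 9 genes tested, 1 rose and 0 fell. A share of 11.1% higher is near the 9.32% of all genes tested. The median log2 change was 0.12. That gene was ABRA (10.2 ± 0.395 TPM in mutants and 8.04 ± 1.03 TPM in controls, SD, n = 4 each; limma adjusted p = 0.0185), which encodes an actin-binding stimulator of the pathway. SRF (ENSDARG00000102867) had a ratio of 1.09 (limma adjusted p = 0.349) and mrtfab one of 0.99 (limma adjusted p = 0.937), neither past the test. The number that rose was 2 without control replicate 3. Members of the 9 lists overlap, and over their union 39 of 133 tested genes rose and 21 fell (29.3% and 15.8%, against 9.32% and 13.3% of all genes tested).

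Profiles most like those of 3 members were sought by the smallest root mean square difference between centred log2(TPM + 1) values over the 8 libraries, members left out. Because the groups differ, this measure mostly reflects the size of the difference between mutants and controls, and the genes it picks carry no test here. For actc1c the nearest were si:dkey-239j18.2 (difference 0.0429), hsp90aa1.1 (0.0454), an HSP90 chaperone gene needed for myosin folding in zebrafish muscle, and the annexin gene ANXA3 (0.0579). hsp90aa1.1 had 131.7, 134.8, 129.3 and 136.2 TPM in mutant replicates 1 to 4, against 249.7, 242.6, 244 and 248.3 TPM in control replicates 1 to 4. Its ratio of 0.54 sits beside 0.537 for actc1c, 0.551 for si:dkey-239j18.2 and 0.559 for ANXA3.

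The abundant copies had other neighbours. For actc1b they were ENO3, the muscle enolase gene (0.0223), AK1, an adenylate kinase gene (0.0232), and cxxc1b (0.0267). For ACTA1 (ENSDARG00000055618) they were nme2b.2, a nucleoside diphosphate kinase gene (0.0144), GSTM3 (ENSDARG00000042533), a glutathione transferase gene (0.0164), and her12, a Hairy-related transcription factor gene (0.0203). Ratios of mutant to control means were 1.15 for ENO3, 1.11 for AK1 and 1.12 for cxxc1b, and lay between 1.21 and 1.22 for the neighbours of ACTA1.

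**Figure D5:**
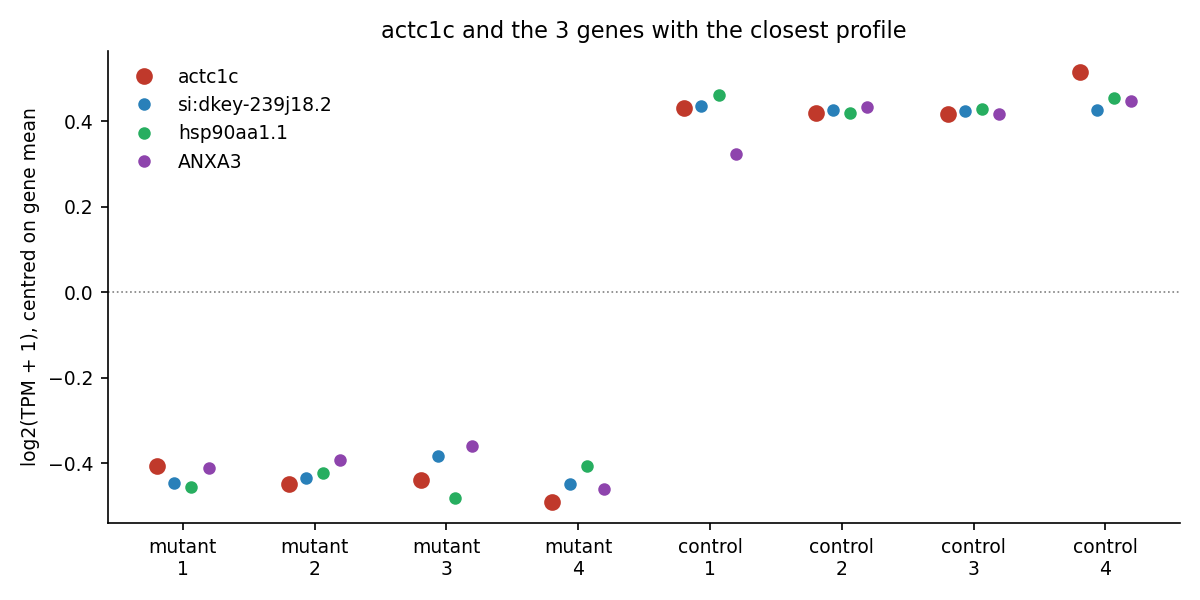
Centred log2(TPM + 1) of actc1c and of the 3 genes with the closest profile in each of the 4 nphp8 mutant libraries (left) and the 4 control libraries (right). All 4 genes lie near -0.4 in mutants and near 0.4 in controls, and control replicate 4 is the highest library for actc1c.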

How the data were processed

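Total RNA of whole larvae was sequenced from 8 samples, with STAR 2.7.3a, RSEM 1.3.1 and the GRCz11 build named in the submitters' processing notes. From this the authors deposited 1 table of TPM per Ensembl gene and library. The library protocol was a provider's own, per the labels' protocols, and the sources do not state its strand setting. TPM keeps no depth, so no counting interval is given. Symbols came from a table covering 89.8% of identifiers.

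The 16560 genes averaging 1 TPM or more were fitted with limma 3.58.1 (R 4.3.3; eBayes with trend, two-sided) on log2(TPM + 1), with Benjamini-Hochberg adjustment over all of them and a call at an adjusted p under 0.05. Summaries used Python 3.11.15, pandas 2.3.3, scipy 1.17.1 and matplotlib 3.10.9. The members and lists were chosen with earlier results of these data known. Named from each list were the 2 genes of highest mean TPM and up to 3 called genes with the largest absolute log2 change, beside every alpha-actin and cytoplasmic actin and the 3 nearest profiles of 3 members. Added as well were the other genes called in either direction in the thin filament list and the other FLNC copy. These additions were not checked singly under the alternatives or for outlying libraries. Alternatives were other pseudocounts, filters and scalings, a replicate block, and leaving out each library. No sequences are shown.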

Additional observations from a re-analysis of the deposited data

Results flagged for a closer look

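In 3 of 108 groups of 4 libraries examined (the members, their sum and the other named genes, in each group), 1 library stood far from the other 3 by Dixon's criterion; chance alone flags about 1 group in 20. actc1c was at 302.1 TPM in control replicate 4, against 282.3 to 285 TPM in the other controls, which widens its distance from the mutants slightly (log2 change -0.89 with this library and -0.87 without it). CFL1, a cofilin gene, was at 941.2 TPM in mutant replicate 4, against 967.4 to 969.6 TPM in the other mutants. atp2a1l, a calcium pump gene, was at 31.1 TPM in mutant replicate 1, against 32.6 to 32.7 TPM in the other mutants, all well above the controls.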

How the results depend on the processing

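Across 15 alternatives, actc1b, actc1a and both ACTA1 copies kept their direction and call, with log2 changes of 0.16 to 0.20 for actc1b, 0.10 to 0.13 for actc1a, 0.27 to 0.30 for ACTA1 (ENSDARG00000055618) and 0.20 to 0.24 for ACTA1 (ENSDARG00000036371). actc1c ranged from -0.91 to -0.87. acta2 lost its call without a filter on low values (log2 change 0.24, limma adjusted p = 0.0795) and ranged from 0.20 to 0.29 when each library was left out and from 0.13 to 0.30 over all alternatives. Below 5 TPM, it could not be fitted under the stricter filter. Among other named genes that passed, only TMOD1, FLNC (ENSDARG00000018820), TAGLN (ENSDARG00000045408), myl4 and nppb moved by over 1.5 times, each with a pseudocount of 5. ACTC1 ranged from -0.0048 to 0.028 when each library was left out, and CFL1 from -0.0039 to 0.031. mrtfab, not called, turned sign after median-of-ratios rescaling (0.0052) and after rescaling without mitochondrial and the 50 most abundant genes (0.012), and ranged from -0.065 to 0.052 when each library was left out. The cause was not tested. Same-numbered samples did not deviate together (correlations of -0.0288, -0.0621, -0.102 and -0.0511, with 0 of 8 samples correlating best with their own number). The values thus gave no sign of pairing by number. This check cannot exclude other links between same-numbered samples. The sources do not state the clutches, and controls that are WT could not share a clutch with maternal zygotic mutants. With the replicate block 2932 genes were called instead of 3745, 4 named genes lost their calls (limma adjusted p = 0.0972 for acta2, with a log2 change of 0.24, 0.0535 for cxxc1b, 0.0607 for CCT2 and 0.0633 for cmlc1), and 4 actin folding genes were lower. The summed alpha-actin ratio stayed between 1.12 and 1.14.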
